A study of Homo sapiens with 17 samples.

Results

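Insulin-like growth factor binding proteins (IGFBPs) and their partners were followed through quiescence, RAS-induced senescence and transformation of human fibroblasts. The genes were taken by symbol: IGFBP2, IGFBP3, IGFBP4, IGFBP5, IGFBP6 and IGFBP7, the receptor IGF2R, the ligand IGF2 and the protease PAPPA. Of these 9 genes, 8 had a row in the table of 9699 genes, and IGF2 was not analysed here.

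The cells were BJ, a human foreskin fibroblast line, and all groups carried hTERT. Messenger RNA was measured by RNA-Seq and ribosome-protected fragments by Ribo-Seq, both as FPKM, a fragment count scaled for transcript length and sequencing depth. The 17 samples (9 RNA-Seq, 8 Ribo-Seq) were deposited as 12 columns, 6 per assay. In 5 columns 2 samples had been merged and in 7 columns there was 1 sample, so no column has a replicate and no spread between samples could be computed. Proliferating cells were grown in 10% serum. Quiescent cells were deprived of serum. Pre-senescent and senescent cells carried a tamoxifen-inducible RASG12V and were taken at day 5 and day 14 of treatment with 1e-07 M 4-OHT, the active form of tamoxifen. Transformed cells carried hTERT, a knockdown of p16INK4A, SV40 small T antigen and, among other changes, RASG12V delivered by a retroviral vector. Quiescent and pre-senescent cells were sequenced with one proliferating column (run 1), and senescent and transformed cells with another (run 2). Each condition was compared with the proliferating column of its own run. The quiescent and pre-senescent comparisons therefore share a control, and so do the senescent and transformed ones.

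IGFBPs are secreted proteins that hold insulin-like growth factors outside the cell. They carry the growth factors, keep them from the IGF1R receptor or release them near it when proteases such as PAPPA cut the binding protein. IGF2R takes up IGF2 for breakdown and also carries lysosomal enzymes to the lysosome. Fibroblasts are a rich source of several IGFBPs, and IGFBPs are known components of the mix of proteins that senescent fibroblasts secrete.

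The proliferation markers followed the labels for senescence and for both proliferating columns. Of a list of 10 cell-cycle genes, 9 had a row, and all 9 were at least 2-fold lower in senescent cells in both assays. In quiescent cells 9 were lower in RNA and 7 in Ribo-Seq. In pre-senescent cells 0 were lower in RNA and 6 in Ribo-Seq, and in transformed cells 0 were lower in either assay. Collagens and other fibroblast markers were present (14 of 14 with a row), 0 of 4 endothelial markers had a row, and CD68 and KRT19 were the single rows of their 5-gene leukocyte and epithelial lists. Some checks did not follow the labels or could not decide them. HRAS RNA was 1283.52 FPKM in proliferating cells of run 2 and 311.51 FPKM in the column labelled transformed, and its Ribo-Seq level was 2057.82 and 212.3 FPKM. In run 1 HRAS RNA was 2415.28 FPKM in proliferating and 2102.25 FPKM in pre-senescent cells. An RNA level does not show whether the inducible RAS was active, so this pair does not go against the label. The labels do not say whether the proliferating cells carried the inducible RAS construct. CDKN2A RNA, the p16 gene, was 6.75 FPKM in proliferating cells of run 2 and 12.64 FPKM in the transformed column, labelled a p16INK4A knockdown. Its Ribo-Seq level was 8.92 and 5.51 FPKM in that order. Each gene is represented by 1 transcript, and whether this row follows p16INK4A itself was not tested. The Ribo-Seq samples of senescent cells and of proliferating cells in run 2 had titles and condition fields that named each other's state. Titles were followed. Across genes the senescent Ribo-Seq column had a correlation of 0.897 with senescent RNA and 0.780 with proliferating RNA of run 2, and MKI67, a proliferation marker, was listed at the floor of 1 FPKM in it. The proliferating Ribo-Seq column of run 2 had 0.875 with proliferating RNA of run 2 and 0.796 with senescent RNA, and MKI67 at 43.02 FPKM. Each of these columns was thus nearer to the RNA of its title than to that of its condition field.

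The promoters of 4 members are shown because IGF2R and PAPPA were highest in senescent cells, and IGFBP3 and IGFBP5 were at least 2-fold below the proliferating cells of their own run in pre-senescent, senescent and transformed cells. Each window holds the 250 bases before the RefSeq start on build GRCh38.p14, read 5′ to 3′ on the gene's strand. Capitals mark 3 motifs, with TATAAA searched on the gene's strand only and GGGCGG and CACGTG on either strand. The first is TATAAA, the TATA box that sits just before some start sites. The next is GGGCGG, a GC box bound by Sp1 factors. The last is CACGTG, an E-box bound by helix-loop-helix factors. The motif of AP-1 factors, TGANTCA, was also searched and was found in none of the member windows. No motif overlapped another kind. The motifs were chosen after the sequences had been looked at, and a match is only a description.
The windows are IGF2R at chr6:159968832-159969081 (plus strand), PAPPA at chr9:116153541-116153790 (plus strand), IGFBP3 at chr7:45921273-45921522 (minus strand) and IGFBP5 at chr2:216695550-216695799 (minus strand).
IGF2R: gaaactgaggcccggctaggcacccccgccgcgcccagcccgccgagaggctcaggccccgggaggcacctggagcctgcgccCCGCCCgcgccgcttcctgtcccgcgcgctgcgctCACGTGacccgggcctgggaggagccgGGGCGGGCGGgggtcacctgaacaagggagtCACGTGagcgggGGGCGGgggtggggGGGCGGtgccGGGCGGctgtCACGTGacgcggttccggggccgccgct
PAPPA: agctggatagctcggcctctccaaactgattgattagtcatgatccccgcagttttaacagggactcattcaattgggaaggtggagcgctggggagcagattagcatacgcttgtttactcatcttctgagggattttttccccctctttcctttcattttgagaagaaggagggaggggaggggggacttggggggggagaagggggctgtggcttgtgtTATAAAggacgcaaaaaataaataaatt
IGFBP3: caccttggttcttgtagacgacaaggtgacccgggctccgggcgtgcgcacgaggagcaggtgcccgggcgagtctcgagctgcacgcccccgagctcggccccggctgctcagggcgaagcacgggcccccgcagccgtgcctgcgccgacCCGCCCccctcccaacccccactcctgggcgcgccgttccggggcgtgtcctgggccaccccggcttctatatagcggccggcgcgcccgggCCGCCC
IGFBP5: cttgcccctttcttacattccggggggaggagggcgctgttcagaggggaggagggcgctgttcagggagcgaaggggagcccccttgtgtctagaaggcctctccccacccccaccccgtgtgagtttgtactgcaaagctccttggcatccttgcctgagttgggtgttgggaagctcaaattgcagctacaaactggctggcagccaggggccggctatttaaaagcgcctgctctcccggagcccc
The windows differed in base composition and in these motifs. IGF2R had 3 copies of CACGTG and 6 of GGGCGG in a window of 79.2% GC. A share of 6.34% of the 35116 windows in the table held CACGTG, and 0.0797% held 3 or more copies. IGFBP3 had 2 copies of GGGCGG (42.6% of windows held at least 1) at 76% GC. PAPPA had a TATAAA from 28 to 23 bases before the start, a motif in 6.8% of windows, at 48% GC. IGFBP5 held none of the 4 motifs at 61.2% GC, and the median of all windows was 58% GC. Only these spellings were searched, so a TATA box spelled otherwise would not be marked. TGANTCA was in 6.57% of all windows. The remaining windows, of IGFBP2 (3 starts), IGFBP4 and IGFBP6, held at most 1 copy of any of these motifs, among them a TATAAA in IGFBP4. In all, 7 members had 9 windows.

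IGFBP4 and IGFBP5 together made up most of the RNA of the 6 IGFBPs in every column. The summed RNA level was 1007.03 FPKM in proliferating cells of run 1, 1222.97 in quiescent, 464.58 in pre-senescent, 2572.01 in proliferating cells of run 2, 1175.81 in senescent and 1452.08 in transformed cells. IGFBP5 RNA was 39% and 41.2% of this sum in the proliferating columns, 26.6% in quiescent, 17.7% in pre-senescent, 19.6% in senescent and 7.98% in transformed cells. IGFBP4 RNA was 29.4% and 25.9% in proliferating, 30.6% in quiescent, 46.9% in pre-senescent, 49.6% in senescent and 63% in transformed cells. IGFBP5 thus led in both proliferating columns and IGFBP4 in every other column. By Ribo-Seq the order differed: IGFBP5 led everywhere except in transformed cells, where IGFBP7 took 41.2% of the summed level, IGFBP4 28.7% and IGFBP5 25.7%. Without replicates, neighbours in these orders have no error on their distance.

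**Figure D1:**
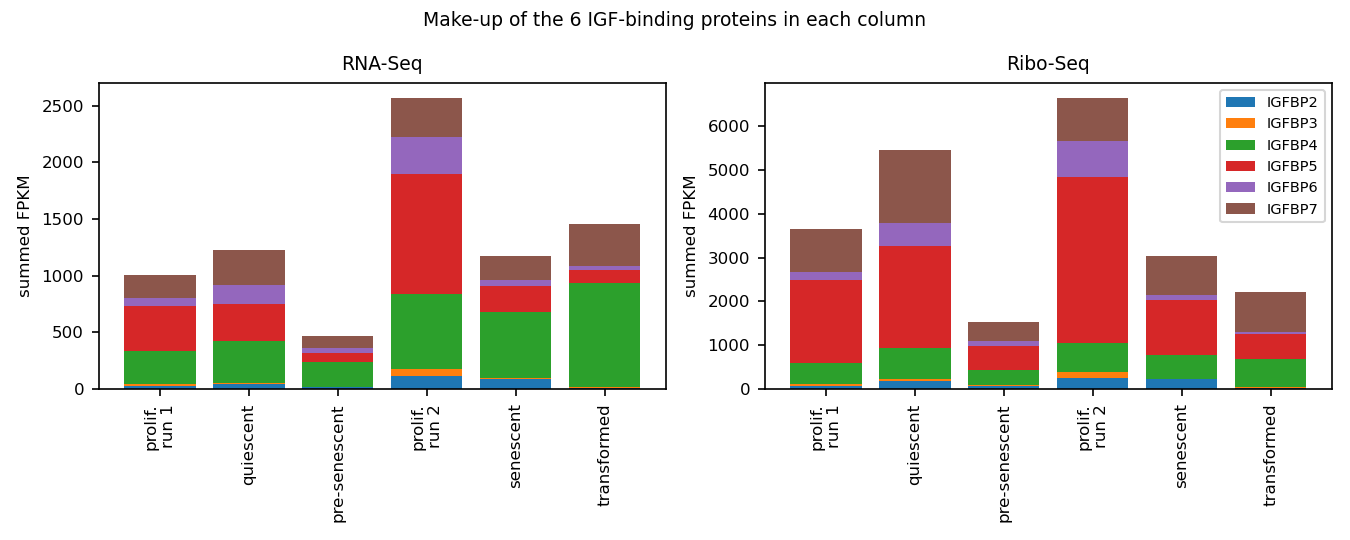
Stacked bars give the FPKM of the 6 IGFBPs in each column, RNA-Seq on the left and Ribo-Seq on the right, with 0 at the base. The red IGFBP5 segment is 41.2% of RNA in proliferating cells of run 2 and 7.98% in transformed cells, and the pre-senescent bar is the lowest in both assays (464.58 and 1533.15 FPKM).

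The 2 proliferating columns, the only pair from 1 labelled condition, were far apart for the IGFBPs. RNA of IGFBP2, IGFBP3, IGFBP4, IGFBP5 and IGFBP6 was 5.4, 3.27, 2.25, 2.7 and 4.57 times higher in run 2 than in run 1. These 5 of 8 members passed 2-fold upwards in RNA, where 4.84% of all genes did. In Ribo-Seq 5 members did so too (IGFBP2, IGFBP3, IGFBP5, IGFBP6 and PAPPA), against 10.3% of all genes. For TE, the ratio of Ribo-Seq to RNA level, 0 members differed by 2-fold, against 9.69% of genes in either direction. IGF2R was close between the columns, at 65.65 and 47.11 FPKM in RNA and 92.41 and 94.09 FPKM in Ribo-Seq. Of the 14 fibroblast markers 6 in RNA and 7 in Ribo-Seq were at least 2-fold higher in run 2 and 0 were lower, and KRT19 RNA was at the floor of 1 FPKM in run 1 and 39.76 FPKM in run 2. The part of run, library layout or culture in these differences was not tested. In such bulk samples, fewer cells of a type and less RNA per cell cannot be told apart.

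**Figure D2:**
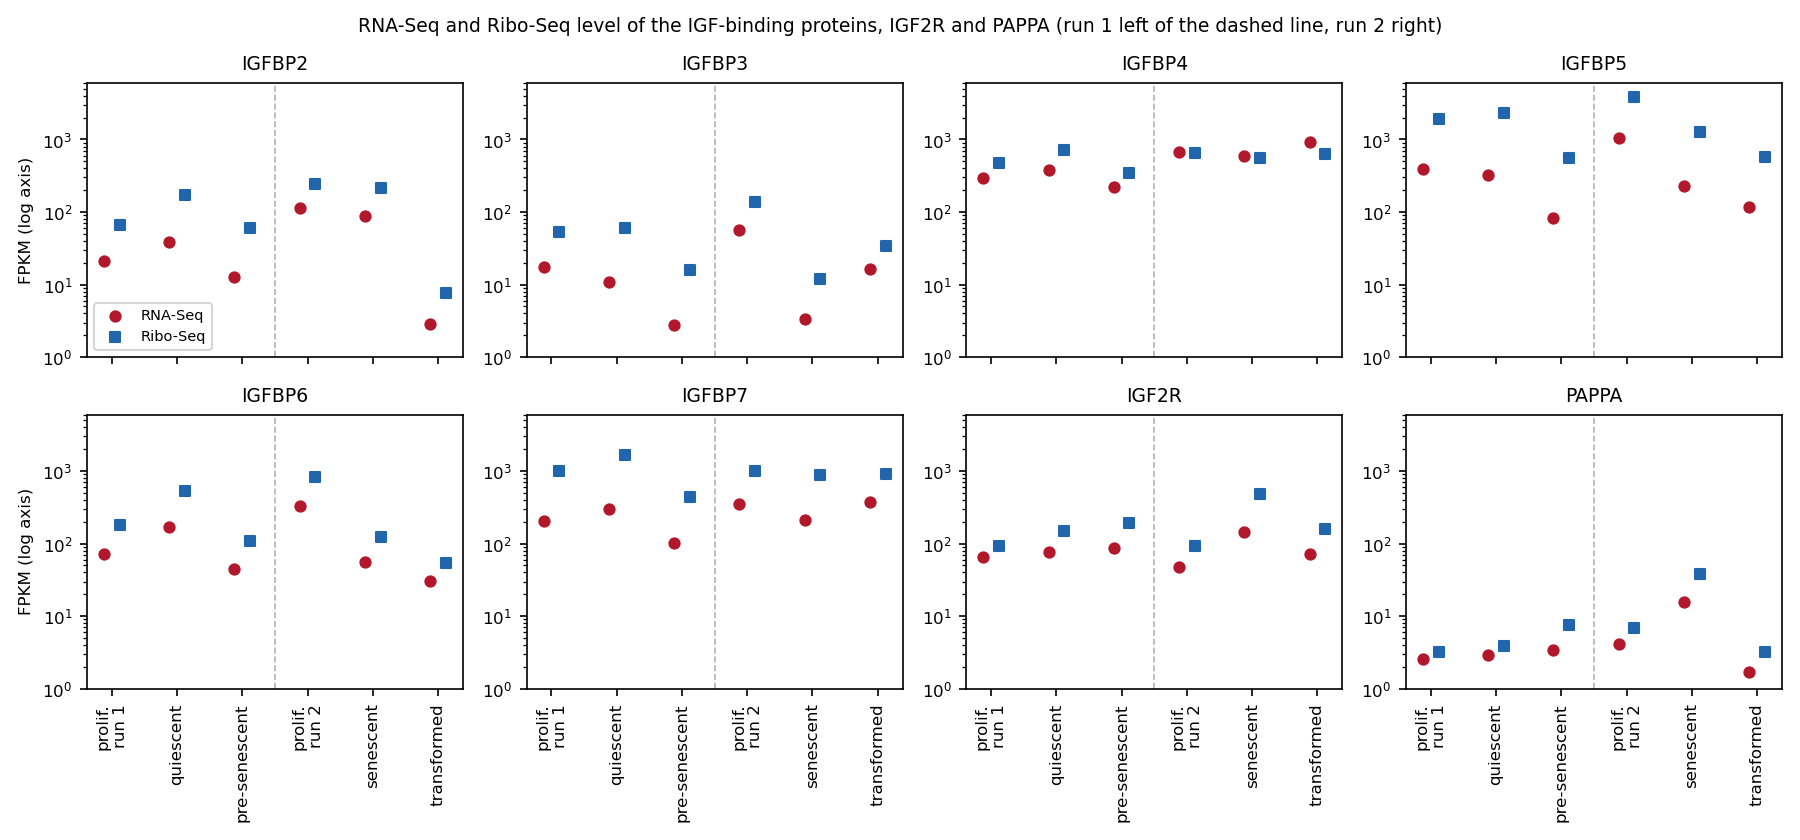
Each panel plots 1 gene's FPKM on a log axis against the 6 columns, red circles for RNA-Seq and blue squares for Ribo-Seq, with run 1 left and run 2 right of the dashed line. IGFBP3 is lowest in pre-senescent (2.77 FPKM) and senescent (3.40 FPKM) RNA, IGFBP2 in transformed RNA (2.87 FPKM), and PAPPA and IGF2R are highest in senescent cells.

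IGFBP3 (ENST00000381083), the main carrier of insulin-like growth factors in blood, was low in pre-senescent and senescent cells. Its RNA level was 17.32 FPKM in proliferating cells of run 1, 10.93 in quiescent, 2.77 in pre-senescent, 56.56 in proliferating cells of run 2, 3.40 in senescent and 16.62 in transformed cells. In the same order its Ribo-Seq level was 52.74, 59.50, 15.91, 135.94, 12.06 and 34.20 FPKM. The pre-senescent and senescent columns lay below both proliferating columns in both assays. Relative to the same run, IGFBP3 RNA was 6.25-fold lower in pre-senescent, 16.6-fold lower in senescent and 3.4-fold lower in transformed cells. The folds in Ribo-Seq were 3.31, 11.3 and 3.97.

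IGFBP5 (ENST00000233813), which binds the extracellular matrix as well as growth factors, was the most abundant IGFBP of proliferating cells and was lower in 3 conditions. RNA was 392.96 FPKM in proliferating cells of run 1, 325.50 in quiescent, 82.27 in pre-senescent, 1059.10 in proliferating cells of run 2, 230.30 in senescent and 115.90 in transformed cells. Ribo-Seq gave 1892.99, 2331.19, 556.49, 3795.76, 1249.37 and 566.37 FPKM in that order. The pre-senescent, senescent and transformed columns were all below both proliferating columns. Against the same run the RNA was 4.78-fold, 4.6-fold and 9.14-fold lower in these 3 conditions, and the Ribo-Seq level 3.4-fold, 3.04-fold and 6.7-fold lower.

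IGFBP6 (ENST00000301464), which prefers IGF2 as a ligand, went in opposite directions in quiescence and in the later RAS states. Its RNA was 72.20 FPKM in proliferating cells of run 1, 170.46 in quiescent and 45.04 in pre-senescent cells, then 329.78 in proliferating cells of run 2, 55.86 in senescent and 30.54 in transformed cells. Ribo-Seq levels were 178.38, 528.29, 107.19, 823.15, 124.09 and 54.54 FPKM. Quiescent cells lay between the 2 proliferating columns, and senescent and transformed cells below both. IGFBP6 was 2.36-fold higher in quiescent RNA and 2.96-fold higher in quiescent Ribo-Seq. It was 5.9-fold (RNA) and 6.63-fold (Ribo-Seq) lower in senescent cells, and 10.8-fold and 15.1-fold lower in transformed cells.

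IGFBP2 (ENST00000233809), which can also bind integrins, separated senescent from transformed cells. Its RNA was 21.25 FPKM in proliferating cells of run 1, 38.44 in quiescent, 12.91 in pre-senescent, 114.81 in proliferating cells of run 2, 89.31 in senescent and 2.87 in transformed cells. In Ribo-Seq the values were 66.81, 173.63, 59.56, 247.19, 211.83 and 7.75 FPKM. The transformed column was the lowest of the 6 in both assays. IGFBP2 was 40-fold lower there in RNA and 31.9-fold lower in Ribo-Seq than in proliferating cells of run 2, while senescent cells differed by -0.36 and -0.22 on the log2 scale. In quiescent cells it was 2.6-fold higher in Ribo-Seq and 1.81-fold higher in RNA.

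IGFBP4 (ENST00000269593), an inhibitor of growth factor action and a substrate of PAPPA, did not reach 2-fold in any condition. Its RNA was 296.39, 374.68 and 218.12 FPKM in proliferating, quiescent and pre-senescent cells of run 1, and 665.48, 583.42 and 914.96 FPKM in proliferating, senescent and transformed cells of run 2. Its Ribo-Seq levels in that order were 480.40, 706.69, 349.83, 656.55, 557.42 and 632.74 FPKM. IGFBP7 (ENST00000295666), a relative with low affinity for the growth factors, passed 2-fold once. It had RNA levels of 206.91, 302.96, 103.47, 346.28, 213.52 and 371.19 FPKM and Ribo-Seq levels of 986.36, 1658.09, 444.17, 1002.54, 878.16 and 907.78 FPKM in the same order. Its Ribo-Seq level was 2.22-fold lower in pre-senescent cells, and its RNA difference there was just short of 2-fold.

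The receptor and the protease were higher in senescent cells. IGF2R (ENST00000356956) had RNA levels of 65.65 FPKM in proliferating cells of run 1, 75.68 in quiescent, 86.49 in pre-senescent, 47.11 in proliferating cells of run 2, 145.05 in senescent and 72.88 in transformed cells. Ribo-Seq gave 92.41, 149.08, 194.38, 94.09, 484.24 and 156.90 FPKM. The senescent column was the highest of the 6 in both assays, and every condition was above both proliferating columns. IGF2R was 3.08-fold higher in senescent RNA and 5.15-fold higher in senescent Ribo-Seq, and 2.1-fold higher in pre-senescent Ribo-Seq.

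PAPPA (ENST00000328252), a secreted metalloprotease that cuts IGFBP4, was expressed at low levels. RNA was 2.58 FPKM in proliferating cells of run 1, 2.95 in quiescent, 3.44 in pre-senescent, 4.15 in proliferating cells of run 2, 15.72 in senescent and 1.68 in transformed cells. The Ribo-Seq levels were 3.24, 3.91, 7.57, 6.80, 37.97 and 3.17 FPKM. Senescent cells stood above the other 5 columns, and transformed cells below them, in both assays. PAPPA was 3.79-fold higher in senescent RNA and 5.58-fold higher in senescent Ribo-Seq, 2.34-fold higher in pre-senescent Ribo-Seq, and 2.47-fold (RNA) and 2.15-fold (Ribo-Seq) lower in transformed cells.

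The counts of members past 2-fold can be set beside the share of all genes past it in the same direction, with no test in either case. In quiescent cells 1 of 8 members was higher in RNA (IGFBP6; 4.01% of all genes) and 0 were lower (2.37%), while in Ribo-Seq 2 were higher (IGFBP2 and IGFBP6; 9.11%) and 0 lower (8.02%). The median log2 difference of the 8 members was 0.27 in RNA and 0.62 in Ribo-Seq, against 0.00 and -0.05 over all genes. In pre-senescent cells 0 members were higher in RNA (1.77%) and 2 lower (2.0%). In their Ribo-Seq, IGF2R and PAPPA were higher (2 of 8; 7.13%) and IGFBP3, IGFBP5 and IGFBP7 lower (3 of 8; 10.3%). The medians were -0.70 and -0.60 over members and 0.02 and -0.10 over all genes.

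Senescent and transformed cells had 5 members each past 2-fold, in both assays. In senescent cells IGF2R and PAPPA were higher in RNA (2 of 8; 7.08% of all genes) and IGFBP3, IGFBP5 and IGFBP6 lower (3 of 8; 13.0%), and the same genes passed in Ribo-Seq (11.0% of all genes higher, 16.6% lower). In transformed cells IGFBP2, IGFBP3, IGFBP5, IGFBP6 and PAPPA were lower in RNA (5 of 8; 5.33%) and in Ribo-Seq (5 of 8; 7.36%), and 0 members were higher (4.92% and 5.28%). The transformed medians were -1.54 and -1.55, against 0.08 and 0.00 over all genes, and the senescent ones -0.53 and -0.23, against 0.00 and -0.10. No member was past 2-fold in opposite directions in the 2 assays. The senescent RNA differences do not rest on the Ribo-Seq columns with conflicting labels. If the condition fields were followed in place of titles, the senescent Ribo-Seq differences would take the opposite sign, for example 3.49 for IGFBP3 and -2.48 for PAPPA on the log2 scale. In transformed Ribo-Seq, IGFBP3 would then differ by 1.5 and PAPPA by -3.58. Fibroblast markers also passed 2-fold in each condition, in mixed directions. Of 14, 2 in RNA and 7 in Ribo-Seq were at least 2-fold higher in quiescent cells, and 5 and 3 were lower in pre-senescent cells. A total of 10 in RNA and 9 in Ribo-Seq were at least 2-fold lower in senescent cells, and 4 and 7 were lower and 2 and 2 higher in transformed cells. Their summed RNA level was 10110.1 FPKM in proliferating cells of run 2, 6445.51 in senescent and 11268.1 in transformed cells. KRT19 was also lower, at 4.43 FPKM in senescent RNA and at the floor of 1 FPKM in transformed RNA against 39.76 FPKM, and at 8.96 and 2.06 against 91.1 FPKM in Ribo-Seq. The part of these markers in the IGFBP differences was not tested.

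**Figure D3:**
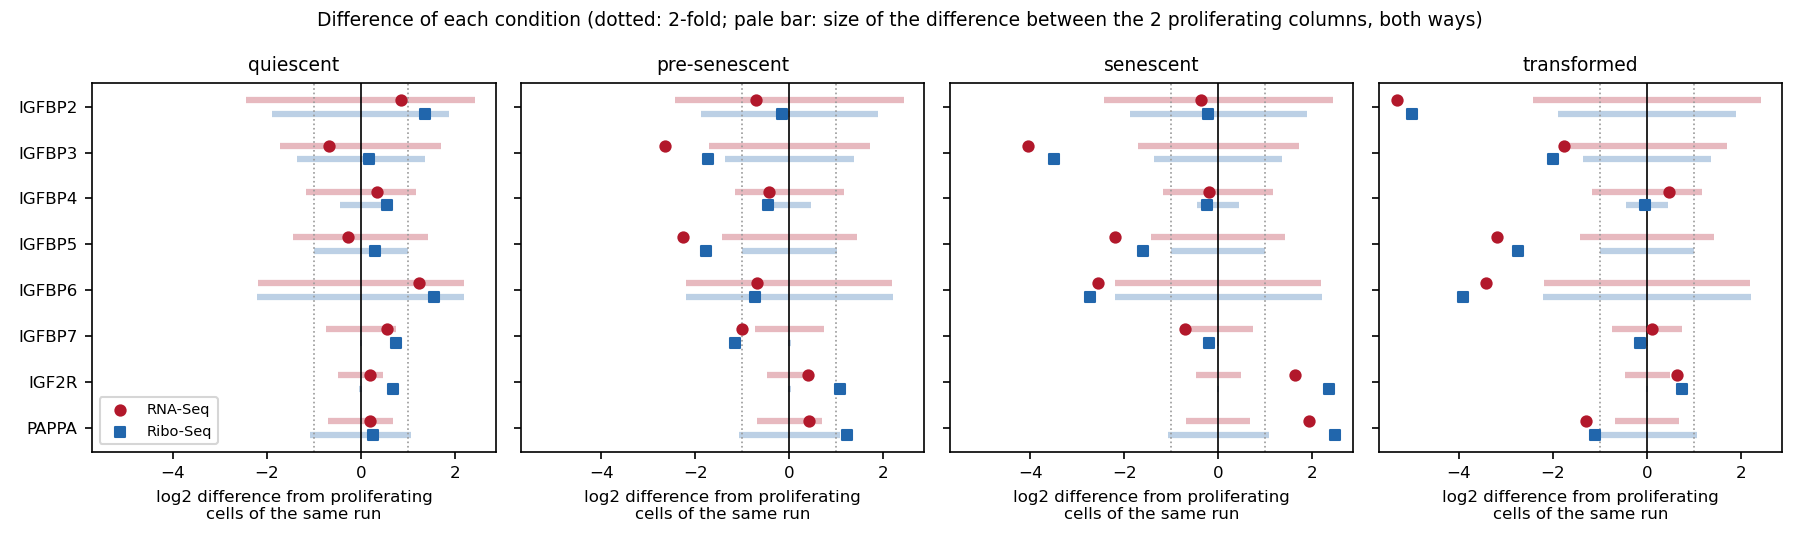
Each panel shows 1 condition, with the log2 difference from proliferating cells of the same run on the x axis, red circles for RNA-Seq and blue squares for Ribo-Seq. The pale bars reach as far as the 2 proliferating columns differ, and the quiescent points past 2-fold (IGFBP2 and IGFBP6) stay inside them while the senescent and transformed points past 2-fold lie outside.

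The difference between the proliferating columns gives the only yardstick for these values. It crosses runs and RNA library layouts, whereas each difference judged here lies within a run. The study reported lower reproducibility between runs than within a run. The yardstick is therefore not the spread of a difference within a run. In senescent, transformed and pre-senescent cells each difference past 2-fold was larger than that gene's difference between the 2 proliferating columns in the same assay. The margin was narrow for IGFBP3 in transformed RNA (-1.77 against 1.71) and for PAPPA in transformed Ribo-Seq (-1.10 against 1.07). In quiescent cells the differences of IGFBP6 (1.24 in RNA, 1.57 in Ribo-Seq) were smaller than those between the columns (2.19 and 2.21), and so was the IGFBP2 difference in Ribo-Seq (1.38 against 1.89).

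Set against the proliferating column of the other run, 3 of the 5 senescent differences stayed past 2-fold in both assays. The share of all genes past 2-fold against that column was not computed. These were IGFBP3 at -2.35 in RNA and -2.13 in Ribo-Seq, IGF2R at 1.14 and 2.39, and PAPPA at 2.61 and 3.55. IGFBP5 (-0.77 and -0.60) and IGFBP6 (-0.37 and -0.52) did not, and IGFBP2 was then higher in senescent cells (2.07 and 1.66). Of the 5 transformed differences 3 stayed: IGFBP2 (-2.89 in RNA, -3.11 in Ribo-Seq), IGFBP5 (-1.76 and -1.74) and IGFBP6 (-1.24 and -1.71). IGFBP3 (-0.06 and -0.62) and PAPPA (-0.62 and -0.03) did not, and IGFBP4 RNA was then higher (1.63). In pre-senescent cells both RNA differences and 4 of 5 in Ribo-Seq stayed, all except PAPPA at 0.15. For IGFBP3, IGFBP5 and IGFBP7 this was fixed in advance, because their proliferating level was higher in run 2. Their decreases could only grow with that control. Senescent PAPPA, and senescent IGF2R in Ribo-Seq, could likewise only grow, because their proliferating level was lower in run 1. None of the quiescent differences stayed, and all 3 changed sign (IGFBP6 at -0.95 in RNA and -0.64 in Ribo-Seq, IGFBP2 at -0.51 in Ribo-Seq). Quiescent RNA of IGFBP2 (-1.58), IGFBP3 (-2.37) and IGFBP5 (-1.70) and quiescent Ribo-Seq of IGFBP3 (-1.19) were instead past 2-fold lower. In pre-senescent cells IGFBP2 (-3.15), IGFBP4 (-1.61), IGFBP6 (-2.87) and IGFBP7 (-1.74) were then past 2-fold lower in RNA as well, and IGFBP2 (-2.05) and IGFBP6 (-2.94) in Ribo-Seq.

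**Figure D4:**
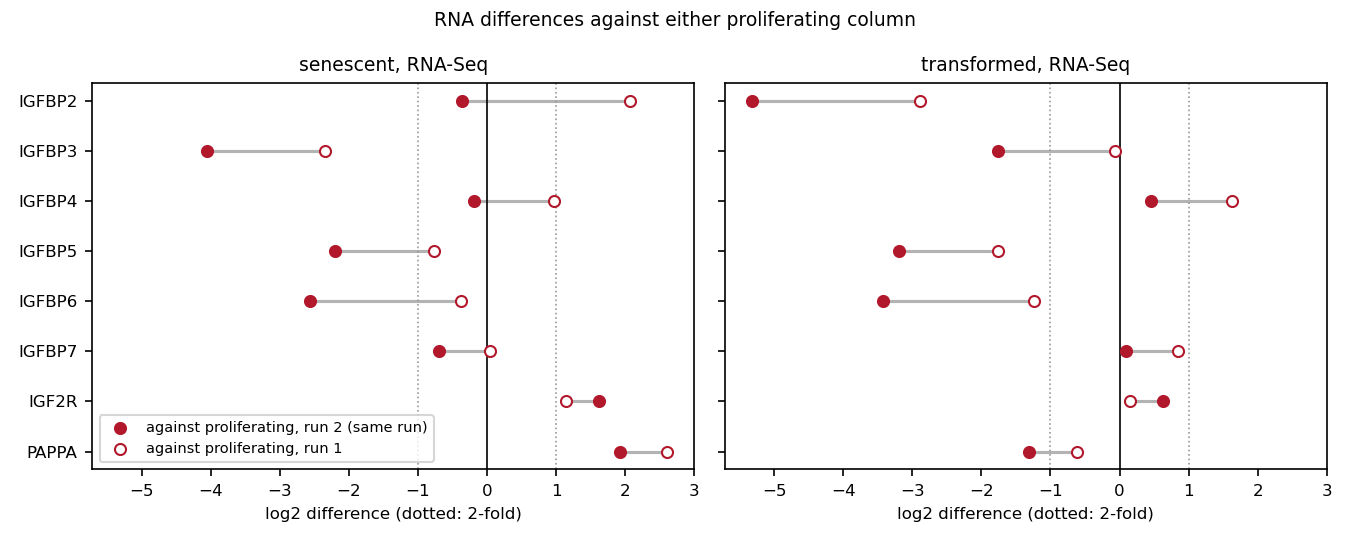
For senescent (left) and transformed (right) RNA, filled circles give each log2 difference from proliferating cells of run 2 and open circles the one from run 1, with dotted lines at 2-fold. IGFBP2 in senescent cells goes from -0.36 to 2.07, while IGFBP2 in transformed cells is lower against both (-5.32 and -2.89).

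Senescent and transformed cells, both of run 2, can be compared without either proliferating column. IGFBP2 was 31.1-fold higher in senescent RNA and 27.3-fold higher in senescent Ribo-Seq than in transformed cells, and PAPPA 9.36-fold and 12-fold. IGFBP3 was 4.89-fold and 2.84-fold lower in senescent cells. In RNA these 3 were the members past 2-fold: 2 higher in senescent cells (8.08% of all genes) and 1 lower (15.1%). In Ribo-Seq IGF2R (3.09-fold), IGFBP6 (2.28-fold) and IGFBP5 (2.21-fold) were also higher, which made 5 higher (12.7%) and 1 lower (17.3%).

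All IGFBPs except IGFBP4 had a TE above the all-gene median in every column. Ribo-Seq FPKM was computed over the coding sequence and RNA FPKM over the whole transcript, so the share of untranslated sequence in a transcript enters every comparison of TE levels between genes, ranks included, and its part was not tested. Differences in TE of 1 gene between columns use the same transcript. IGFBP5 had a TE (log2 Ribo-Seq over RNA) of 2.27 in proliferating cells of run 1, 2.84 in quiescent, 2.76 in pre-senescent, 1.84 in proliferating cells of run 2, 2.44 in senescent and 2.29 in transformed cells. Between 93.2% and 99.3% of all genes had a lower TE than IGFBP5, and between 83.5% and 98.6% a lower TE than IGFBP7. IGFBP4 was the exception among the IGFBPs, with TE between -0.53 in transformed and 0.92 in quiescent cells, and 20.6% to 75.6% of genes below it. The all-gene median TE was 0.22 to 0.40. IGF2R had its highest TE (1.74) in senescent and its lowest (0.49) in proliferating cells of run 1, and PAPPA likewise (1.27 and 0.33).

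No TE difference of a member reached 2-fold in any condition. Over all genes 7.89% did so in quiescent, 14.5% in pre-senescent, 9.43% in senescent and 3.41% in transformed cells, in either direction. The member value farthest from 0 was that of IGFBP3 in pre-senescent cells, 0.92 on the log2 scale. In quiescent cells all 8 members had a TE above that of proliferating cells of run 1, from 0.08 (PAPPA) to 0.84 (IGFBP3), where 44.3% of all genes did. Their median was 0.41, against -0.05 over all genes. Against proliferating cells of run 2, IGF2R (-0.02) and PAPPA (-0.31) were below 0. For IGF2R the TE difference was 0.74 in senescent and 0.68 in pre-senescent cells, which is the gap between its larger Ribo-Seq and smaller RNA differences.

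Of 30 other genes listed around the IGF axis, 22 had a row. The list was drawn widely and takes in genes, such as CRIM1, ESM1 and HMGA2, that are not core parts of the axis. In RNA 3 were higher and 2 lower in quiescent cells (4.01% and 2.37% of all genes), 2 and 3 in pre-senescent (1.77% and 2.0%), 4 and 5 in senescent (7.08% and 13.0%), and 5 and 5 in transformed cells (4.92% and 5.33%). In Ribo-Seq 5 were higher and 0 lower in quiescent (9.11% and 8.02%), 3 and 2 in pre-senescent (7.13% and 10.3%), 5 and 1 in senescent (11.0% and 16.6%), and 5 and 5 in transformed cells (5.28% and 7.36%). STC1, a secreted inhibitor of PAPPA, was higher in all 4 conditions. Its RNA was 39.40 FPKM in proliferating cells of run 1 and 41.12 in run 2, and 444.84 in quiescent, 616.75 in pre-senescent, 700.14 in senescent and 609.21 in transformed cells. The corresponding Ribo-Seq levels were 129.14, 209.91, 1405.63, 2446.10, 4720.12 and 2789.98 FPKM. The STC1 columns thus fell into 2 low proliferating ones and 4 high ones, 11.3-fold to 17-fold apart in RNA. STC2, the second PAPPA inhibitor of this family, was past 2-fold in senescent cells alone of the 4 conditions, at 177.13 FPKM in RNA against 62.23 FPKM, 2.85-fold, and 4.06-fold in Ribo-Seq.

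IGF1R, the signalling receptor of the family, had lower RNA in pre-senescent, senescent and transformed cells. Its RNA was 10.96 FPKM in proliferating cells of run 1, 9.33 in quiescent, 4.90 in pre-senescent, 11.58 in proliferating cells of run 2, 3.63 in senescent and 4.61 in transformed cells. Its RNA was 2.24-fold, 3.19-fold and 2.51-fold lower in pre-senescent, senescent and transformed cells, and its Ribo-Seq level 1.34-fold, 2.03-fold and 2.6-fold lower, the first of these short of 2-fold. IRS2, an adaptor of the receptor, was lower in transformed cells, at 1.30 against 4.65 FPKM in RNA (3.58-fold). Its Ribo-Seq level there was at the floor of 1 FPKM. INSR passed 2-fold in quiescent Ribo-Seq, at 3.29 against 1.38 FPKM.

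Among proteases and matrix proteins, ADAMTS1 was 8.28-fold lower in transformed RNA and 2.06-fold lower in senescent RNA, but 1.05-fold lower in senescent Ribo-Seq. HTRA1, a serine protease that can cut IGFBP5, was 2.25-fold higher in transformed RNA. ADAM9 was 2.53-fold higher in senescent Ribo-Seq and 1.45-fold higher in senescent RNA. PAPPA2 passed 2-fold in quiescent RNA at 2.27 FPKM, with both proliferating columns listed at the floor. CRIM1 was lower in RNA of all 4 conditions (2-fold to 2.42-fold), and CYR61 in quiescent, pre-senescent and senescent RNA (2.37-fold to 2.55-fold). In Ribo-Seq both passed 2-fold in pre-senescent cells only, and in senescent cells they were 1.21-fold and 1.28-fold lower. CTGF was lower in senescent and transformed RNA (2.24-fold and 2.03-fold), with senescent CTGF Ribo-Seq 1.12-fold lower. NOV was 2.51-fold higher in quiescent Ribo-Seq and 1.81-fold higher in quiescent RNA, and ESM1 5.07-fold higher in pre-senescent RNA. TMEM219, described as a receptor of IGFBP3, was 2.08-fold higher in senescent RNA, but 1.41-fold higher in senescent Ribo-Seq, short of 2-fold. The RNA-binding proteins IGF2BP1 and IGF2BP3 were 2-fold and 3.98-fold higher in transformed RNA, IGF2BP3 also 3.08-fold higher in senescent RNA, and HMGA2 2.3-fold higher in transformed RNA. Several of these differences were smaller than that between the 2 proliferating columns. CTGF RNA was 60.66 FPKM in proliferating cells of run 1 and 174.45 in run 2, with 77.84 in senescent and 86.08 in transformed cells between them. ADAMTS1 RNA was 76.15 and 228.62 FPKM in the proliferating columns, with 110.72 FPKM in senescent cells between them. IGF2BP3 RNA was 11.70 FPKM in run 1 and 3.45 in run 2, with 10.62 FPKM in senescent cells. For TE, LRP1 was past 2-fold in quiescent and pre-senescent cells (2.37-fold and 2.95-fold higher) and CTGF in senescent cells (2.01-fold higher).

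The genes whose pattern lay nearest to a member's were sought by Euclidean distance over the 8 log2 differences (4 conditions, both assays) among 6456 genes. For IGF2R they were ENTPD6 (distance 0.58) and TM7SF3 (0.68), the smallest distances listed. IGFBP5 had TMEM47 (1.09) and OXTR (1.51), and IGFBP3 had HSPA2 (1.43) and PSG5 (2.05). PAPPA had CYB5R1 (1.31) and APH1B (1.43), IGFBP6 had TCEA3 (1.81) and TNS1 (1.98), and IGFBP2 had SYPL2 (1.92) and PPAP2C (2.05). The distances are a description of these columns. They are not scaled to the size of a member's differences, so they do not rank the matches of different members. A nearest gene can also differ in a condition. SYPL2 was past 2-fold lower in senescent cells (-1.76 in RNA, -1.09 in Ribo-Seq), where IGFBP2 was short of 2-fold.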

How the data were processed

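The authors mapped RNA-Seq and Ribo-Seq reads with Bowtie to Ensembl release 65 transcripts (genome build hg19), as named in the submitters' processing notes, and deposited FPKM values, over the whole transcript for RNA-Seq and over the coding sequence for Ribo-Seq. FPKM values under 1 had been set to 1 (2.56% to 5.26% of genes per RNA column, 2.74% to 5.73% per Ribo-Seq column; no member value). The table holds no counts per gene, so no counting interval is given. The read totals that the study lists for its libraries were not used here. How merged samples were combined is not given in the sources used here. Libraries of RNA in run 2 were single-end and the others paired-end.

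From the deposited FPKM, log2 values, log2 differences from the proliferating column of the same run and TE (log2 Ribo-Seq minus log2 RNA) were computed over all 9699 genes with Python 3.11.15, pandas 2.3.3 and NumPy 2.4.6. With 1 column per condition there is no test: a difference counted when it was at least 2-fold. The calling step was tested on simulated data. Samples were grouped by their titles. One label check is not reported here. The members, gene lists and alternatives were chosen with earlier results of these data known. Named were all members, listed IGF-axis genes past 2-fold, and, for members past 2-fold in 2 or more conditions, the 2 nearest genes with at least 10 FPKM in some column of each assay. Alternatives were log2(FPKM + 1), a 1.5-fold threshold, 1.75 local SDs over 500 genes of similar level, median centring, a minimum of 10 FPKM, the other or the mean control, and the condition fields in place of titles. Promoters came from RefSeq (GRCh38.p14), a build other than that of the table.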

Additional observations from a re-analysis of the deposited data

Results flagged for a closer look

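PAPPA went opposite ways in senescent and in transformed cells, which both carried RASG12V. Relative to proliferating cells of the same run, its RNA differed by 1.92 in senescent and by -1.30 in transformed cells on the log2 scale. Its Ribo-Seq level differed by 1.22 in pre-senescent, 2.48 in senescent and -1.10 in transformed cells. Its pre-senescent RNA differed by 0.42, short of 2-fold. The transformed differences were short of 2-fold under log2(FPKM + 1) (-0.94 in RNA, -0.90 in Ribo-Seq), against the mean of both controls (-0.96 and -0.57) and against the control of the other run (-0.62 and -0.03). The pre-senescent Ribo-Seq difference was short of it against the mean of both controls (0.69) and against the control of the other run (0.15). With 1 column per condition, the difference between these groups was not tested. Senescent and transformed cells share their control column.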

How the results depend on the processing

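No paired analysis was possible because same-numbered replicates were merged into single columns, and for the same reason no replicate could be left out. The counts of members past the threshold were 1, 2, 5 and 5 in RNA and 2, 5, 5 and 5 in Ribo-Seq for quiescent, pre-senescent, senescent and transformed cells, and 0 in TE for each. All 12 counts stayed within 1.5 times under log2(FPKM + 1) and under a minimum of 10 FPKM, though under log2(FPKM + 1) PAPPA in transformed cells was short of 2-fold in both assays (-0.94 and -0.90). At 1.5-fold the counts were 3 (RNA), 4 (Ribo-Seq) and 1 (TE) in quiescent cells, 5 (RNA) and 3 (TE) in pre-senescent cells and 2 (TE) in senescent cells. Beyond the limit set by local SDs they were 1 for quiescent TE, and 4 (RNA), 3 (Ribo-Seq) and 2 (TE) for pre-senescent cells. Median centring gave 1 for pre-senescent TE. The control of the other run gave 3 (RNA), 1 (Ribo-Seq) and 2 (TE) in quiescent cells, 6 (RNA) and 2 (TE) in pre-senescent cells, 1 (TE) in senescent cells, and 3 (Ribo-Seq) and 1 (TE) in transformed cells. It turned the sign of quiescent IGFBP6 (-0.95 in RNA, -0.64 in Ribo-Seq) and IGFBP2 (-0.51 in Ribo-Seq). The mean of both controls gave 0 (Ribo-Seq) and 1 (TE) in quiescent cells, and 6 (RNA) and 1 (TE) in pre-senescent cells. Counts that stayed within 1.5 times are not listed, but the genes behind them could change. With this mean, quiescent RNA of IGFBP6 fell to 0.14 and IGFBP3 was past 2-fold instead, lower at -1.52. In transformed RNA IGFBP3 (-0.91) and PAPPA (-0.96) were then short of 2-fold, and IGFBP4 passed it, higher at 1.04. The cause of these changes was not tested. The share of all genes past the threshold was not computed under these alternatives. The counts therefore show how the calls depend on the setting, not how members compare with all genes.

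Following the condition fields in place of titles exchanges the senescent and proliferating Ribo-Seq columns of run 2. By construction this turned the senescent Ribo-Seq differences of IGFBP3 (3.49), IGFBP5 (1.60), IGFBP6 (2.73), IGF2R (-2.36) and PAPPA (-2.48), and it turned transformed IGFBP3 (1.5). Transformed IGF2R went from 0.74 to -1.63, which made 6 members past 2-fold there. TE counts became 5 in senescent and 5 in transformed cells. RNA titled proliferating is then paired with Ribo-Seq titled senescent, and the reverse. Any difference between these states enters TE by construction, so the TE counts are not a result about the members. The share of all genes past 2-fold under this exchange was not computed. RNA differences do not use the exchanged Ribo-Seq columns.

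No value has a replicate error or a counting error, and PAPPA lies near the floor of 1 FPKM in most columns, where a difference is least certain.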
